A study of Mus musculus with 12 samples.

Results

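The 35 genes described here encode the proteins that carry glucose into cells and break it down: glucose transporters, the enzymes of glycolysis with the enzymes that set fructose 2,6-bisphosphate, fructose bisphosphatases, and the enzymes of the pentose phosphate pathway. They were chosen by symbol from the 23420 genes of a count table of inguinal white adipose tissue (iWAT), the subcutaneous fat pad in which beige adipocytes form in cold. Of the 35 genes, 32 had enough reads for a test. Fbp1, Eno1 and Pklr did not, with at most 5 counts in a library.

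Glucose enters fat cells mainly through GLUT1, which is present in most cell types, and GLUT4, which insulin moves to the cell surface. Hexokinase traps the sugar as glucose 6-phosphate. From there glycolysis yields ATP and pyruvate, with phosphofructokinase as a main control point, and the pentose phosphate pathway yields NADPH, which fat cells use to make fatty acids, and ribose. Several steps are run by isoforms that differ between tissues, so a fat pad with a trace of muscle in it can carry muscle isoforms. Genes of glucose uptake and glycolysis are textbook targets of the hypoxia-inducible factors (HIF). HIF1α and HIF2α have both common and separate target genes, and which of them acts on the genes described here was not tested. Thermogenic adipocytes are known to take up much glucose in cold.

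RNA was sequenced from 12 male C57BL/6 mice aged 10 weeks, with 3 mice in each of 4 groups, in which WT or HIF2α AKO mice were held at thermoneutrality (TN) or in cold. All mice carried loxP sites in both alleles of the gene for HIF2α. WT mice had no Cre, and HIF2α AKO mice carried Cre under the Adiponectin promoter, which is active in adipocytes, so that Cre and the deletion cannot be told apart. TN mice were kept at 30 °C for 1 week and cold mice at 4 to 6 °C for 3 days. Values are CPM (counts scaled to a common library size) after TMM normalization, on 22368316 to 35204631 gene counts per library. Folds and p-values come from the quasi-likelihood test of edgeR, adjusted by Benjamini-Hochberg over 15306 genes, and a gene was called at an adjusted p under 0.05. The p-values measure the spread between these mice.

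Epas1, the targeted gene encoding HIF2α, was not called lower in HIF2α AKO mice. In cold it read 576, 562 and 743 CPM in WT mice and 985, 743 and 748 CPM in mice labelled HIF2α AKO, and at TN the log2 fold change was -0.05 ± 0.20 (SE). Genotypes are therefore given as labelled. The libraries TN HIF2α AKO 2 and cold HIF2α AKO 1 stood apart, with 2031 and 1785 summed CPM of 12 skeletal muscle markers against 43.0 to 134 in the other 10. The 8 beige or brown adipocyte markers summed to 28.4 to 90.6 CPM at TN to 3350 to 4864 CPM in cold WT and to 5622 to 8582 CPM in cold HIF2α AKO mice.

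In WT mice, cold raised most of the pathway. Of the 32 tested genes, 19 rose and 1, Aldoc, fell, and the median log2 fold change was 0.96 against -0.03 over all tested genes. Over all 15306 genes, 15.6% were called higher and 5.68% lower. In 22 of the 32 genes all 3 cold mice lay above all 3 TN mice, against 22.7% of all genes. In HIF2α AKO mice 17 of the 32 rose and 0 fell, with a median of 0.97 against -0.05 over all tested genes. There 15.6% of all genes were called higher and 11.5% lower, and 20 of the 32 genes did not overlap in the upward direction, against 24.9% of all genes. All 17 genes called higher in HIF2α AKO mice were among the 19 of WT mice, which is 100% of the first list and 89.5% of the second, whereas 78.7 and 78.4% of all genes called higher were shared. Leaving out single libraries lowered the count higher in WT mice to 10 (without TN WT 2) and 12 (without TN WT 1 or cold WT 3), and in HIF2α AKO mice to 10 (without TN HIF2α AKO 1 or cold HIF2α AKO 1). The summed level of the 35 genes was 6539 ± 2013 CPM (SD, n = 3) in TN WT, 7518 ± 2595 in TN HIF2α AKO, 15863 ± 3744 in cold WT and 18543 ± 3946 in cold HIF2α AKO mice.

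**Figure D1:**
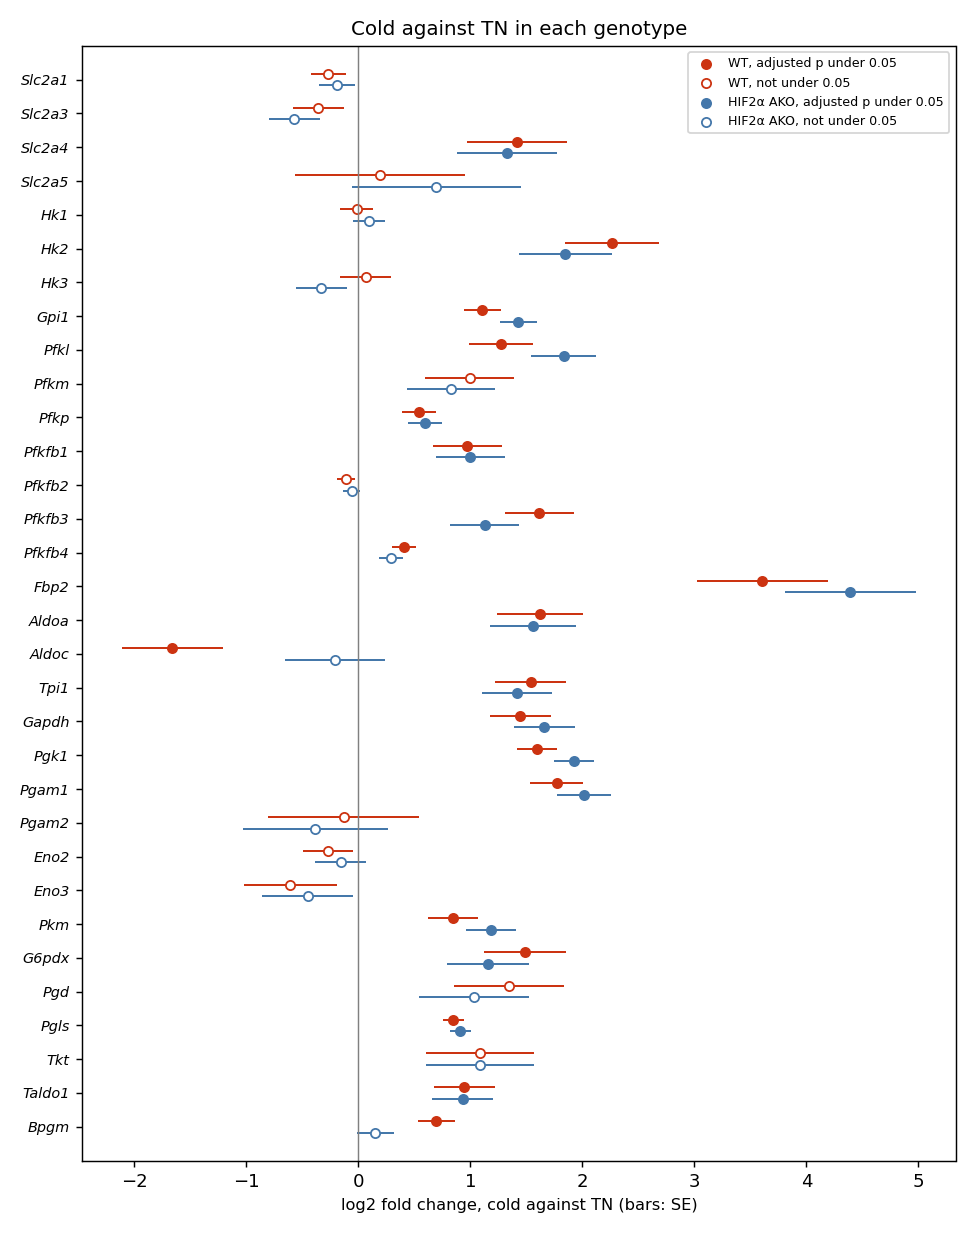
Log2 fold change of cold against TN for the 32 tested genes, in WT mice (red) and HIF2α AKO mice (blue), with SE as bars and filled circles for an adjusted p under 0.05. Filled circles lie right of 0 for 19 genes in WT and 17 in HIF2α AKO mice, Fbp2 lies farthest right in both, and Aldoc in WT is the filled circle left of 0.

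The promoters of 6 of these genes are shown because HIF binds short DNA elements with the core ACGTG or GCGTG and because 5 of the 6 rose in cold while Slc2a1, a textbook HIF target, did not pass the test. Each line gives the 250 bases before the RefSeq start (build GRCm38.p6) in the direction of transcription. Capitals mark every match to ACGTG or GCGTG, and every match on the other strand, which reads CACGT or CACGC.
Pgk1: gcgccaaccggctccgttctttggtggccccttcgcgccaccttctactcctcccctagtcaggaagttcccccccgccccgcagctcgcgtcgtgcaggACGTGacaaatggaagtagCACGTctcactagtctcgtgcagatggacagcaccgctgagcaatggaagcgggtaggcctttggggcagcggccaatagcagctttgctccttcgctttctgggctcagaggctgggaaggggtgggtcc
Pgam1: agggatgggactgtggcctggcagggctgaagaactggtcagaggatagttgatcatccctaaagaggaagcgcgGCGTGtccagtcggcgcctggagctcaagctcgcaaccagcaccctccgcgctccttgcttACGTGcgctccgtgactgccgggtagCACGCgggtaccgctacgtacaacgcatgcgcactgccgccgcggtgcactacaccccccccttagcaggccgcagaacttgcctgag
Gpi1: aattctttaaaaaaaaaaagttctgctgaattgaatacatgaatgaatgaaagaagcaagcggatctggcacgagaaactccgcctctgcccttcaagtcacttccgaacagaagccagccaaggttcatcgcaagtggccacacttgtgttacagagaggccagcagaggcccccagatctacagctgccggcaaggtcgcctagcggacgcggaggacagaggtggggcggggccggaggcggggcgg
Hk2: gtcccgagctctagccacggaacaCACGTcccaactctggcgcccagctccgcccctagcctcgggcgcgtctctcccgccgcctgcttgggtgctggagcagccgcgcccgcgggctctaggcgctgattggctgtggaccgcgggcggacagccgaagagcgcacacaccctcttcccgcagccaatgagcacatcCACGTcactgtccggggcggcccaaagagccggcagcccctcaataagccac
Fbp2: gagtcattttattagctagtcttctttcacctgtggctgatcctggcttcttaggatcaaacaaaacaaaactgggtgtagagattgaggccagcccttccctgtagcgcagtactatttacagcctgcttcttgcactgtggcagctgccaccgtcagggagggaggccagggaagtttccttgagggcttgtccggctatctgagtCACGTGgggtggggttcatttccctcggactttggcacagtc
Slc2a1: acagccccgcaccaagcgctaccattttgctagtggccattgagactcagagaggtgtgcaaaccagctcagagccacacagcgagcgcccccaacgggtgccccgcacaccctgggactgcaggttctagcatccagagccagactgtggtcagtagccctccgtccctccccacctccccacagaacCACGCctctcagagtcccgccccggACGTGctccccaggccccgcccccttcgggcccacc
These lines lie at chrX:106186850-106187099 (plus strand) for Pgk1, chr19:41911621-41911870 (plus strand) for Pgam1, chr7:34230337-34230586 (minus strand) for Gpi1, chr6:82774455-82774704 (minus strand) for Hk2, chr13:62858401-62858650 (minus strand) for Fbp2 and chr4:119108495-119108744 (plus strand) for Slc2a1. Pgk1, Hk2 and Slc2a1 each held 2 matches, Pgam1 held 3 and Gpi1 held 0. The 2 matches of Fbp2 are the overlapping strands of a single CACGTG, the E-box, which also is read by other factors. Of 33 members with an entry in the promoter table, 25 (75.8%) held at least 1 match, against 41.5% of all 27025 genes in it. A gene with several listed promoters counted if any of them held a match. The 27025 genes include genes without enough reads for a test, and no set matched in level or CG content was compared. The matches were found in 15 of the 18 genes with an entry that rose in WT mice and in 10 of the other 15. Both strands of a CACGTG count as matches, and 4 of the 33 members held one, against 6.86% of all genes. A match is a run of letters and not a shown binding site.

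Among the glucose transporters, Slc2a4 (GLUT4) rose and Slc2a1 (GLUT1) did not pass the test. Slc2a4 read 163, 84.0 and 251 CPM in TN WT and 407, 336 and 586 CPM in cold WT mice. The HIF2α AKO mice read 88.3, 294 and 254 CPM at TN and 606, 507 and 484 CPM in cold. All cold mice lay above all TN mice in both genotypes, with log2 fold changes of 1.42 ± 0.45 (SE, adjusted p = 0.0458) and 1.33 ± 0.45 (adjusted p = 0.0485). Without the libraries TN HIF2α AKO 2 and cold HIF2α AKO 1, Slc2a4 was called in neither genotype. Its log2 fold changes were then 1.42 (edgeR adjusted p = 0.057) and 1.53 (adjusted p = 0.105). Slc2a1 read 41.8, 40.5 and 41.2 CPM in TN WT and 40.9, 34.7 and 27.0 CPM in cold WT mice. HIF2α AKO mice had 38.1, 32.2 and 38.1 CPM at TN and 25.2, 35.2 and 34.5 CPM in cold. Its groups overlapped between temperatures, and the log2 fold changes were -0.27 (95% interval -0.61 to 0.08) and -0.19 (-0.54 to 0.16). Slc2a3, a high-affinity transporter of neurons and leukocytes, showed -0.36 ± 0.22 and -0.57 ± 0.23 on the log2 scale. In HIF2α AKO mice its cold values, 13.6 to 20.5 CPM, lay below its TN values, 22.5 to 30.4 CPM, at an adjusted p of 0.0789. Leukocyte markers moved with it. In HIF2α AKO mice the 9 macrophage markers summed to 2785 to 3068 CPM at TN and 1627 to 1926 CPM in cold. Of these 9 markers, 2 were called lower there, against 11.5% of all genes. In WT mice the sum of the macrophage markers was 1790 to 3104 CPM at TN and 1444 to 2878 CPM in cold. The 9 lymphocyte markers summed to 1700 to 2628 CPM at TN and 952 to 1627 CPM in cold in WT mice. In HIF2α AKO mice they summed to 1626 to 2553 and 914 to 1444 CPM. Of these 9, 1 was called lower in WT and 3 in HIF2α AKO mice, against 5.68% and 11.5% of all genes. The part of leukocytes in the Slc2a3 values was not tested. Slc2a5, a fructose transporter, ranged from 1.52 to 25.2 CPM at TN and from 9.65 to 30.8 CPM in cold, and its groups overlapped in both genotypes.

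The first steps inside the cell followed the same split between isoforms. Hk2, the hexokinase isoform of insulin-sensitive tissue, read 66.3, 39.8 and 98.7 CPM in TN WT and 263, 317 and 403 CPM in cold WT mice. Their HIF2α AKO counterparts read 56.0, 153 and 161 CPM at TN and 568, 330 and 433 CPM in cold. Cold mice lay above TN mice in both genotypes, and Hk2 rose by 2.26 ± 0.42 in WT (adjusted p = 0.0048) and by 1.85 ± 0.42 in HIF2α AKO mice (adjusted p = 0.0101) on the log2 scale. Hk1, the isoform present in most cells, read 91.3 to 100 CPM in TN WT and 77.3 to 117 CPM in cold WT mice. Its values overlapped across temperatures, with log2 fold changes of -0.02 (95% interval -0.34 to 0.30) in WT and 0.10 (-0.22 to 0.42) in HIF2α AKO mice. Hk3, a leukocyte hexokinase, lay between 11.7 and 19.9 CPM in all 12 libraries, and its groups overlapped. Gpi1, which turns glucose 6-phosphate into fructose 6-phosphate, rose from 339, 290 and 360 CPM to 646, 689 and 795 CPM in WT mice. Gpi1 in HIF2α AKO mice read 300, 364 and 345 CPM at TN and 1115, 766 and 833 CPM in cold. The lowest cold value of Gpi1 was above the highest TN value by a wide margin, and the log2 fold changes were 1.11 ± 0.16 (adjusted p = 0.00177) and 1.43 ± 0.17 (adjusted p = 0.000346).

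**Figure D2:**
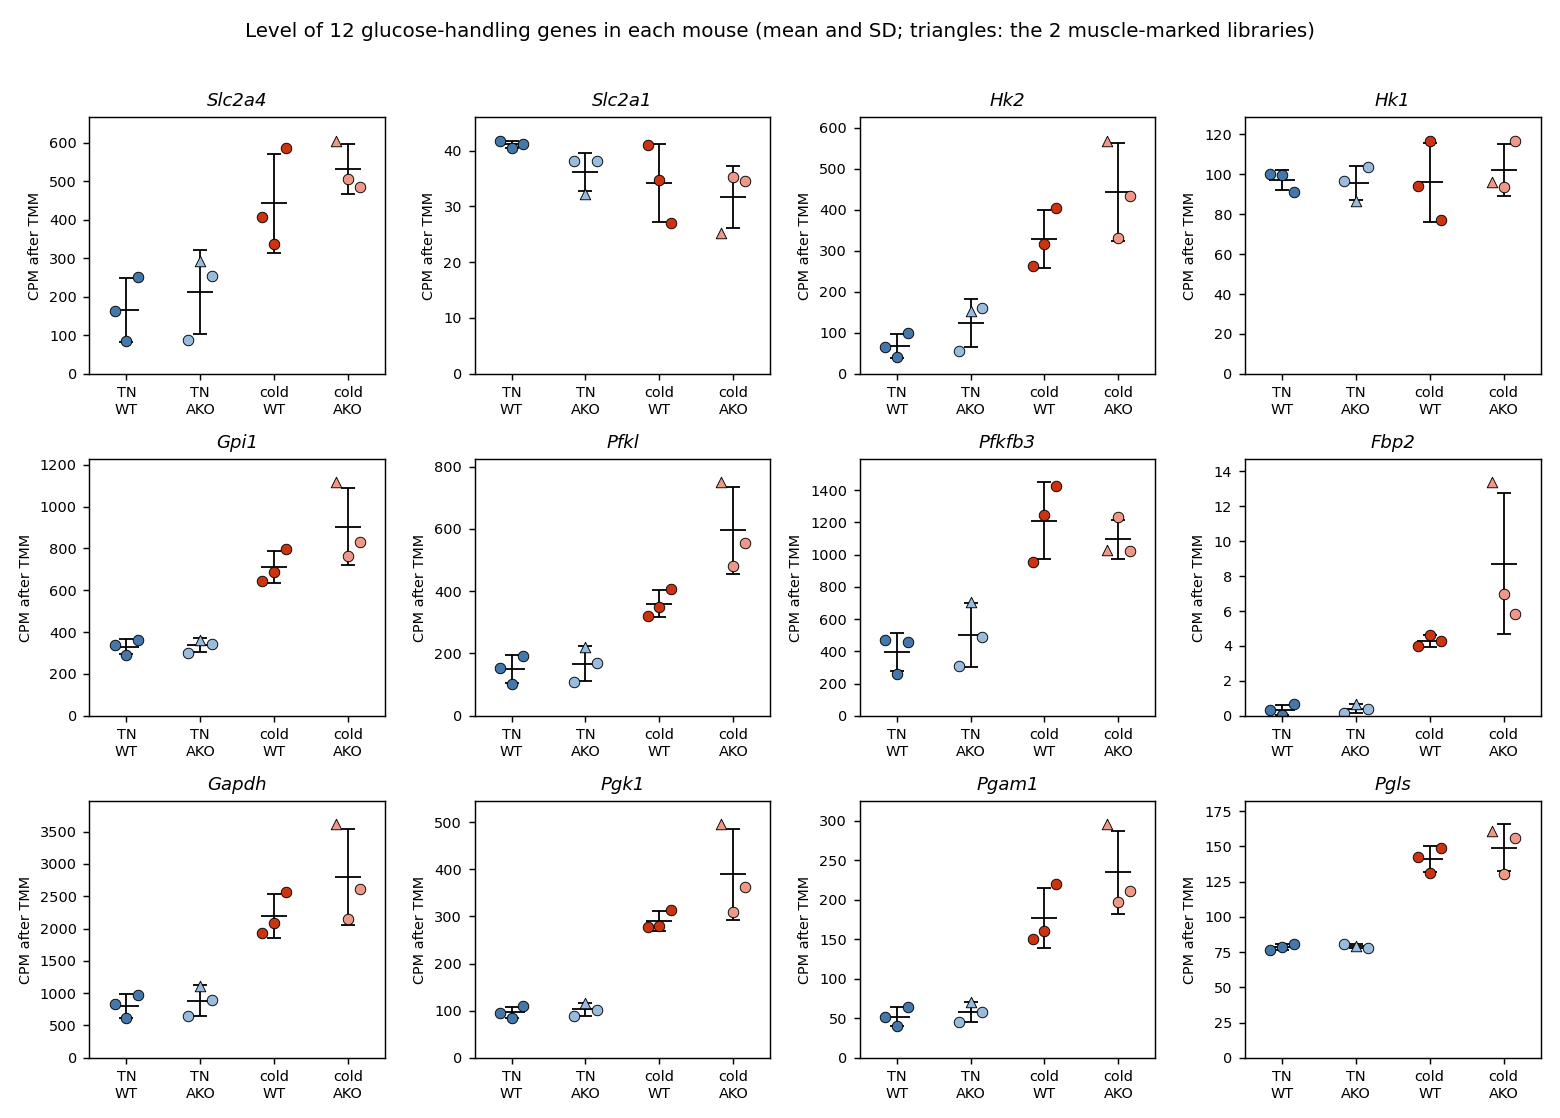
CPM of 12 genes in each of the 12 mice by group, with the group mean and SD as bars and with triangles for the libraries TN HIF2α AKO 2 and cold HIF2α AKO 1. In 10 panels the cold points lie above the TN points, from Pgls (76.3 to 80.7 CPM at TN, 130 to 161 in cold) to Fbp2, whereas Slc2a1 and Hk1 overlap.

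At the phosphofructokinase step, the liver-type subunit Pfkl moved most. Pfkl read 154, 102 and 191 CPM in TN WT and 322, 350 and 408 CPM in cold WT mice. Pfkl in HIF2α AKO mice read 109, 221 and 170 CPM at TN and 749, 481 and 554 CPM in cold. The temperatures did not overlap in either genotype, with log2 fold changes of 1.27 ± 0.28 (adjusted p = 0.0114) and 1.83 ± 0.29 (adjusted p = 0.00162). The platelet-type subunit Pfkp rose less, by 0.54 ± 0.15 in WT (adjusted p = 0.0287) and 0.60 ± 0.15 in HIF2α AKO mice (adjusted p = 0.0173), from 88.6 to 129 CPM at TN to 151 to 193 CPM in cold. The muscle-type subunit Pfkm ranged from 22.8 to 31.2 CPM in TN WT and from 48.3 to 67.2 CPM in cold WT mice but did not pass the test with all libraries (log2 fold change 0.99 ± 0.40, adjusted p = 0.0936). Without the 2 muscle-marked libraries, the log2 fold changes of Pfkm were 0.99 in WT (adjusted p = 0.00445) and 1.12 in HIF2α AKO mice (adjusted p = 0.01).

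Of the 4 PFKFB enzymes, which make and degrade the phosphofructokinase activator fructose 2,6-bisphosphate, Pfkfb3 has the strongest bias toward making it. Pfkfb3 read 470, 257 and 456 CPM in TN WT and 955, 1246 and 1426 CPM in cold WT mice. Pfkfb3 in HIF2α AKO mice read 309, 704 and 491 CPM at TN and 1027, 1233 and 1023 CPM in cold. It rose by 1.62 ± 0.31 (adjusted p = 0.00546) and 1.13 ± 0.31 (adjusted p = 0.022) on the log2 scale without overlap. Pfkfb1, the liver and muscle form, rose by 0.97 ± 0.31 (adjusted p = 0.0458) and 1.00 ± 0.31 (adjusted p = 0.0362). Pfkfb4 rose by 0.41 ± 0.11 in WT mice (adjusted p = 0.0217), from 24.2 to 24.8 CPM at TN to 29.6 to 34.6 CPM in cold, and showed 0.29 ± 0.11 in HIF2α AKO mice (adjusted p = 0.0638). Pfkfb2 stayed between 38.9 and 45.9 CPM in all 12 libraries, with log2 fold changes of -0.11 (95% interval -0.28 to 0.06) and -0.06 (-0.23 to 0.11).

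The largest fold belonged to a scarce transcript of the opposing reaction. Fbp2, the muscle form of fructose 1,6-bisphosphatase, which reverses the phosphofructokinase step, had 13, 2 and 19 counts in TN WT and 89, 109 and 106 counts in cold WT mice. Fbp2 in HIF2α AKO mice had 4, 21 and 11 counts at TN and 276, 173 and 146 counts in cold. In CPM this was 0.07 to 0.66 at TN against 3.98 to 13.4 in cold, and the log2 fold changes were 3.61 ± 0.58 (adjusted p = 0.0025) and 4.39 ± 0.59 (adjusted p = 0.00065). The rise was present in the 3 cold WT libraries, in which the muscle markers summed to 54.5 to 78.4 CPM, and Fbp2 read 0.66 CPM in the TN library with 2031 CPM of muscle markers. In cold, the muscle-marked library had the highest value, 13.4 CPM. The part of muscle in the Fbp2 values was not tested. Fbp1, the liver form, had 0 to 5 counts in every library, with 3 to 4 counts in each cold HIF2α AKO library.

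In the lower part of glycolysis, 6 of 10 tested genes rose in each genotype: Aldoa, Tpi1, Gapdh, Pgk1, Pgam1 and Pkm. Over all genes, 15.6% were called higher in each genotype. Pgk1, the phosphoglycerate kinase that yields the first ATP of the pathway, read 94.8, 84.7 and 109 CPM in TN WT and 278, 280 and 314 CPM in cold WT mice. Pgk1 in HIF2α AKO mice read 89.4, 117 and 101 CPM at TN and 495, 309 and 363 CPM in cold. The temperatures were far apart, with log2 fold changes of 1.60 ± 0.18 (adjusted p = 0.000532) and 1.92 ± 0.18 (adjusted p = 0.000154). Pgam1, the phosphoglycerate mutase of most tissues, read 51.2, 40.6 and 64.1 CPM in TN WT and 150, 161 and 220 CPM in cold WT mice. Pgam1 in HIF2α AKO mice read 45.1, 71.0 and 58.0 CPM at TN and 295, 198 and 211 CPM in cold. It rose by 1.77 ± 0.24 (adjusted p = 0.00106) and 2.01 ± 0.24 (adjusted p = 0.000369) on the log2 scale.

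Gapdh, which many studies use as a reference gene, read 609 to 977 CPM in TN WT and 1929 to 2569 CPM in cold WT mice, a log2 fold change of 1.45 ± 0.27 (adjusted p = 0.00479). Gapdh in HIF2α AKO mice read 641 to 1114 CPM at TN and 2154 to 3611 CPM in cold, 1.66 ± 0.27 (adjusted p = 0.00189). The temperatures did not overlap in either genotype. Aldoa, the aldolase of muscle and most other tissues, rose by 1.62 ± 0.38 (adjusted p = 0.0149) and 1.56 ± 0.38 (adjusted p = 0.0152). Tpi1, the triose phosphate isomerase, rose by 1.54 ± 0.32 (adjusted p = 0.00774) and 1.42 ± 0.31 (adjusted p = 0.00945). Pkm, the pyruvate kinase of muscle and adipose tissue, rose by 0.85 ± 0.22 (adjusted p = 0.0222) and 1.19 ± 0.22 (adjusted p = 0.00421). These counts do not separate the splice forms M1 and M2 of Pkm.

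Aldoc, the brain-type aldolase, went the other way in WT mice, with 2.37, 3.26 and 7.20 CPM at TN and 1.66, 1.58 and 0.80 CPM in cold. It fell by 1.66 ± 0.45 on the log2 scale (adjusted p = 0.0253). In HIF2α AKO mice Aldoc read 2.06, 1.48 and 2.58 CPM at TN and 1.16, 2.29 and 1.80 CPM in cold, with overlap and a log2 fold change of -0.21 ± 0.45. The call in WT was lost without the library TN WT 3 or without cold WT 3, when the count of genes called lower was 0. TN WT 3, the highest for Aldoc, also held 278 CPM of epithelial markers against at most 12.1 in the other 11 libraries, and the part of epithelium in the Aldoc value was not tested. Eno2, the neuronal enolase, and Pgam2 did not pass the test in either genotype. Eno3, the muscle enolase, read 30.2 to 36.7 CPM in TN WT and 15.7 to 25.7 CPM in cold WT mice, and its log2 fold change of -0.61 ± 0.41 did not pass with all libraries (adjusted p = 0.287) but did without the 2 muscle-marked libraries (-0.61 ± 0.18, adjusted p = 0.0421). Muscle markers moved with Eno3 in WT mice, with sums of 86.8 to 134 CPM at TN and 54.5 to 78.4 CPM in cold. The part of muscle in this fall was not tested.

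The row of Eno1, the enolase of most tissues, held 0 to 1 counts in all 12 libraries and says nothing of its level. Of the 50-base words of its longest coding transcript, 72.2% also occur in transcripts of other genes, Eno1b most of all, and reads with several alignments were not counted. The same share was 82.5% for Gapdh, which still read 609 to 3611 CPM, 68.0% for Pgk1, 41.5% for Pgam1 and 34.4% for Pkm. Why the row of Eno1 was almost empty was not tested. The levels of genes with a large share may be understated in every library, while a fold between libraries compares the same countable part. For 24 members the share was 5% or less, among them Hk2, Slc2a4, Pfkl, Fbp2 and Pgls. Pklr, the pyruvate kinase of liver and red cells, had 0 to 3 counts.

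All 5 pentose phosphate genes had their cold mice above their TN mice in both genotypes, and 3 of the 5, G6pdx, Pgls and Taldo1, rose. Over all genes, 22.7% in WT and 24.9% in HIF2α AKO mice had cold above TN without overlap. The share called higher was 15.6% in each genotype. Pgls, the second enzyme of the oxidative branch, had a small spread within groups, with 76.3, 78.4 and 80.4 CPM in TN WT against 142, 131 and 149 CPM in cold WT mice. Pgls in HIF2α AKO mice read 80.7, 79.3 and 78.0 CPM at TN and 161, 130 and 156 CPM in cold. The rises were 0.85 ± 0.09 (adjusted p = 0.000517) and 0.91 ± 0.09 (adjusted p = 0.000221) on the log2 scale. G6pdx, the enzyme that commits glucose 6-phosphate to this pathway, read 169, 110 and 204 CPM in TN WT and 336, 296 and 721 CPM in cold WT mice, and rose by 1.49 ± 0.37 (adjusted p = 0.0178). In HIF2α AKO mice G6pdx rose by 1.15 ± 0.37 (adjusted p = 0.0399), from 118 to 234 CPM at TN to 352 to 494 CPM in cold. Taldo1, the transaldolase of the non-oxidative branch, rose by 0.95 ± 0.27 (adjusted p = 0.0313) and 0.93 ± 0.27 (adjusted p = 0.0287).

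Pgd, the next NADPH-yielding enzyme, ranged from 181 to 422 CPM in TN WT and from 521 to 1399 CPM in cold WT mice, and its log2 fold changes of 1.34 ± 0.49 and 1.03 ± 0.49 did not pass the test (adjusted p = 0.0723 and 0.129). Tkt, the transketolase, read 588 to 1756 CPM in TN WT and 2020 to 3851 CPM in cold WT mice. Its log2 fold changes were 1.09 ± 0.48 in both genotypes, with adjusted p of 0.119 and 0.108. The wide TN spread of Tkt and Pgd came from the libraries TN WT 2 and TN HIF2α AKO 1, with 588 and 675 CPM of Tkt. Bpgm, which makes the haemoglobin effector 2,3-bisphosphoglycerate, rose in WT mice from 19.2, 18.0 and 21.5 CPM to 27.1, 26.4 and 41.5 CPM (0.70 ± 0.16, adjusted p = 0.0141). Bpgm in HIF2α AKO mice read 22.2, 26.03 and 20.8 CPM at TN and 25.1, 26.2 and 25.4 CPM in cold, with overlap. Erythroid markers moved with Bpgm: 6 markers summed to 14.2 to 17.8 CPM in TN WT and 31.5 to 71.0 CPM in cold WT mice, with cold WT 3 highest for both, and to 21.7 to 37.0 CPM in TN and 30.5 to 38.9 CPM in cold HIF2α AKO mice. Of the 3 tested, 2 (Alas2 and Slc4a1) were called higher in WT and 0 in HIF2α AKO mice, where 1 had an unadjusted p under 0.05. The share of all genes called higher was 15.6% in each genotype. Hba-a1 and Hba-a2, which are among the 6, were at 0 counts in every library. Reads with several alignments were not counted, and whether this emptied these rows was not tested. The part of erythroid cells in the Bpgm result was not tested.

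The libraries TN WT 2 and TN HIF2α AKO 1 were the lowest at TN for adipocyte markers as well as for the pathway. Their 8 adipocyte markers summed to 4468 and 6595 CPM, against 8132 to 11888 in the other TN libraries, and their 35 pathway genes summed to 4338 and 4700 CPM against 6994 to 9808. In cold the adipocyte sum was 14536 to 28149 CPM. In bulk tissue, fewer cells of a type and less RNA per cell cannot be told apart. Of that sum, 43.9 to 64.9% was Fabp4, which rose itself by 1.73 in WT (adjusted p = 0.0125) and 1.58 in HIF2α AKO mice (adjusted p = 0.0156), whereas Adipoq showed 0.43 and -0.01 on the log2 scale (adjusted p = 0.352 and 0.985). All 8 markers were fitted higher in cold in WT mice and 7 in HIF2α AKO mice, with medians of 1.01 and 0.67. The pathway medians were 0.96 and 0.97. Of the 8 markers, 4 were called higher in WT and 1 in HIF2α AKO mice, against 15.6% of all genes in each genotype. With the Adipoq level as a covariate, 19 pathway genes were called higher in WT and 19 in HIF2α AKO mice. Over all genes the calls higher were then 2207 and 3274, against 2389 and 2381 without a covariate. With the summed marker level as a covariate, 2 (Pgls and Pgk1) were called higher in WT and 7 (Pgls, Pgk1, Gpi1, Pgam1, Fbp2, Pfkl and Gapdh) in HIF2α AKO mice, and over all genes the calls higher fell to 131 and 664. In that fit 13 of the 32 genes lay below 0 in WT mice and 9 in HIF2α AKO mice, against 8 and 8 without a covariate, among them 4 of the 5 pentose phosphate genes in WT mice (Tkt at -0.71 and Pgd at -0.64). Pgk1 kept log2 fold changes of 1.16 and 1.57 and Pgls 0.78 and 0.86. The marker sum did not overlap between temperatures, so that fit can hardly tell it from temperature.

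Isoforms of the same step were compared within each mouse as log2 ratios, in which gene length cancels. The difference between cold and TN was averaged over the genotypes and tested by an exact two-sided permutation of the temperature labels within genotype, in which 400 arrangements give a smallest p of 0.005. All 10 ratios tested had an adjusted p under 0.05 over the 10, and their directions follow in large part from the single-gene folds above. Hk2 to Hk1 rose by 2.12 on the log2 scale (2.37 in WT, 1.87 in HIF2α AKO mice, exact permutation p = 0.005, adjusted p = 0.00714). It lay between -1.32 and 0.82 in the TN mice and between 1.44 and 2.57 in the cold mice. Slc2a1 to Slc2a4 fell by 1.75 (adjusted p = 0.00714 by the same permutation test), from -3.18 to -1.05 at TN to -4.58 to -3.28 in cold. Neither ratio overlapped between temperatures.

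Within the phosphofructokinases, Pfkp to Pfkl fell by 1.01 (adjusted p = 0.00714) and Pfkm to Pfkl by 0.63 (adjusted p = 0.0125) in the permutation test. Pfkm to Pfkl overlapped in WT mice, with -2.73 to -2.15 at TN and -2.83 to -2.60 in cold. Its highest TN value, -1.44, was that of the muscle-marked library TN HIF2α AKO 2. Within the PFKFB enzymes, Pfkfb2 to Pfkfb3 fell by 1.51 and Pfkfb4 to Pfkfb3 by 1.08, both at the smallest p of 0.005. Pfkfb1 to Pfkfb3 fell by 0.38 (permutation p = 0.04) and Slc2a3 to Slc2a1 by 0.24 (permutation p = 0.045), and both overlapped between temperatures and lost the call when single libraries were left out. Aldoc to Aldoa fell by 2.52 and Pgam2 to Pgam1 by 2.14, again at the smallest p. Pgam2 to Pgam1 overlapped across genotypes, with TN WT 3 at -4.69 and cold HIF2α AKO 1 at -4.52, but not within a genotype. The ratios of Eno2 and Eno3 to Eno1 were not formed because Eno1 had too few counts.

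**Figure D3:**
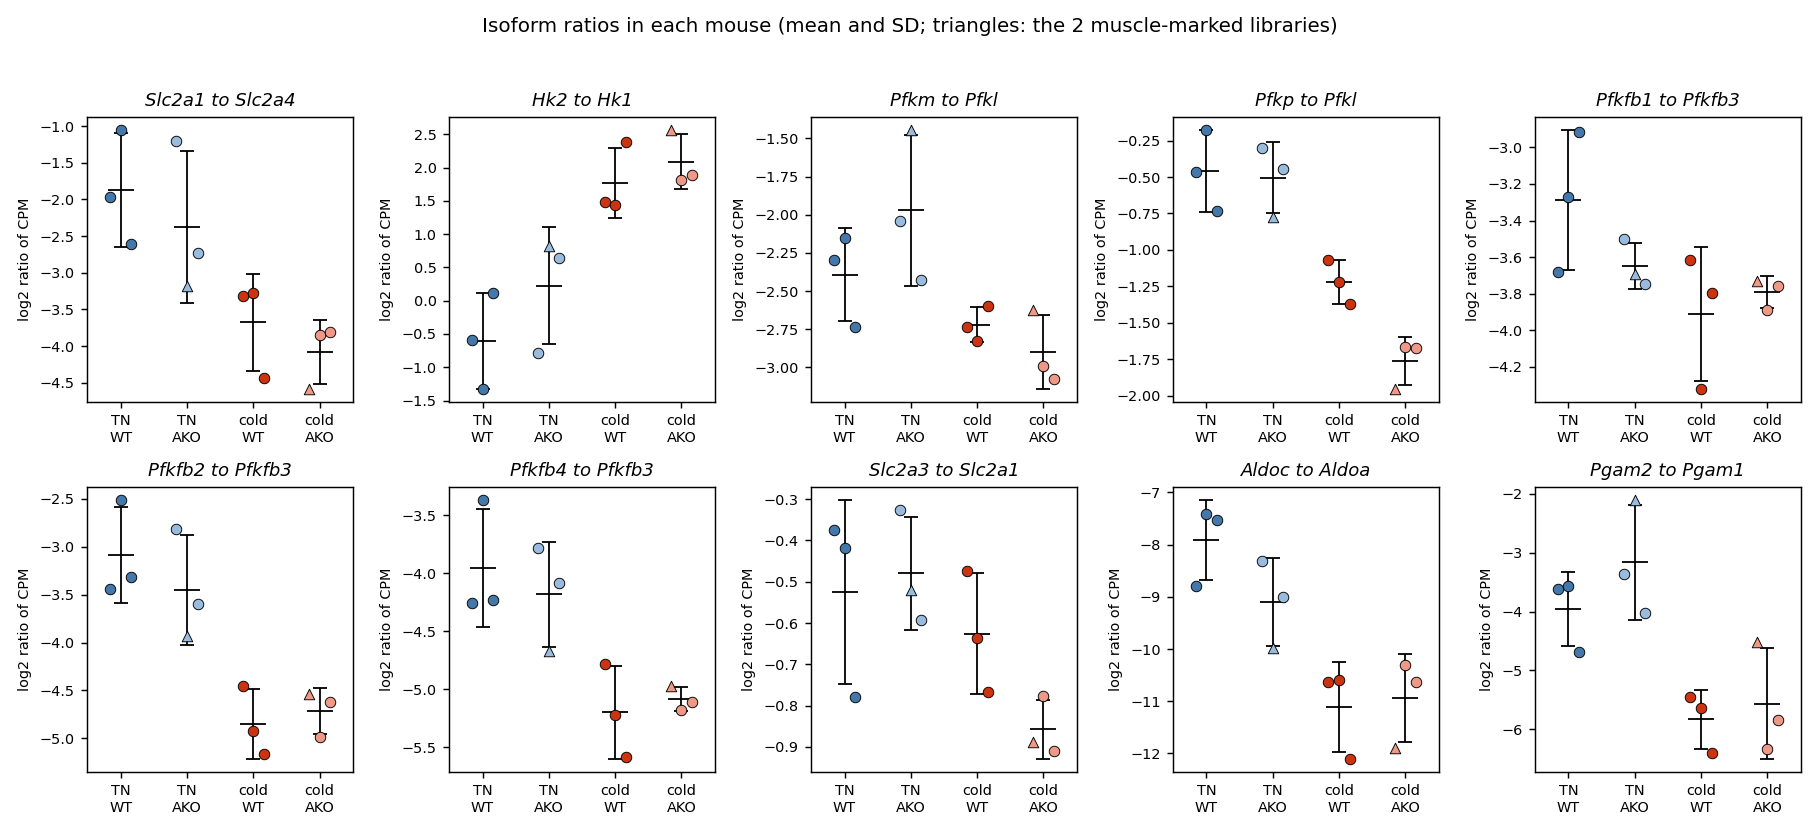
Log2 ratio of the CPM of 2 isoforms in each of the 12 mice by group, with the group mean and SD as bars and with triangles for the libraries TN HIF2α AKO 2 and cold HIF2α AKO 1. Hk2 to Hk1 lies higher in all cold mice (1.44 to 2.57) than in all TN mice (-1.32 to 0.82). Pfkfb1 to Pfkfb3 and Slc2a3 to Slc2a1 overlap between temperatures, as do Pfkm to Pfkl in WT mice and Pgam2 to Pgam1 across genotypes.

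Levels of different genes were compared per kilobase of merged coding-transcript exons. On this scale, Slc2a4 made up 68.7 ± 9.7% (SD, n = 3) of the 4 transporters in TN WT and 87.8 ± 3.5% in cold WT mice, and 74.0 ± 11.1% and 89.5 ± 1.4% in HIF2α AKO mice. Slc2a1 made up 16.9 ± 6.8% in TN WT and 6.23 ± 2.25% in cold WT mice. The leading hexokinase changed in WT mice, from Hk1 with 54.6 ± 7.8% at TN to Hk2 with 69.7 ± 7.8% in cold. In TN HIF2α AKO mice Hk1 and Hk2 were level within their spread, at 43.6 ± 11.3% and 44.8 ± 14.3%, and in cold Hk2 took 75.2 ± 5.2%. Pfkl was the leading phosphofructokinase in all groups, with 53.5 ± 4.9% in TN WT, 51.4 ± 1.9% in TN HIF2α AKO, 64.0 ± 1.3% in cold WT and 70.2 ± 0.3% in cold HIF2α AKO mice. Pfkfb3 held 65.8 ± 5.3% of the PFKFB total in TN WT and 79.0 ± 3.6% in cold WT mice. Aldoa held at least 99.5% of the aldolase total and Pkm at least 99.9% of the pyruvate kinase total in every mouse.

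Per kilobase, Gapdh was the highest of the 35 genes in all 4 groups, with 539 ± 124 CPM per kb in TN WT and 1468 ± 224 in cold WT mice. Tkt and Aldoa followed at TN WT with 393 ± 188 and 389 ± 155 CPM per kb and did not differ beyond their spread. In cold WT mice Aldoa stood at 1193 ± 273 and Tkt at 834 ± 314 CPM per kb, which also overlap within the spread.

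In the muscle-marked libraries TN HIF2α AKO 2 and cold HIF2α AKO 1, 3 muscle isoforms of the pathway were at their highest. Pgam2, the muscle phosphoglycerate mutase, read 16.5 and 12.8 CPM there and at most 4.32 CPM in the other 10 libraries. It was the only member at over 2 times the highest of those 10. Eno3 read 65.4 and 51.8 CPM against at most 36.7, and Pfkm read 81.2 and 121 CPM against at most 67.2. Slc2a5, the fructose transporter, was also at its highest there, with 25.2 and 30.8 CPM against at most 21.8.

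The excess of each gene over the other 2 mice of its group was set against the excess of the muscle markers. Per 1000 CPM of muscle markers, the excess of Pgam2 was 6.38 CPM in TN HIF2α AKO 2 and 5.74 CPM in cold HIF2α AKO 1, and that of Eno3 was 18.3 and 18.7 CPM. Both genes thus kept nearly the same proportion to the markers in the 2 libraries. A near-steady proportion was not limited to them, since Slc2a4 had 62.2 and 64.3 CPM and Pgd 120 and 111 CPM. For Pfkm the excess was 26.5 and 34.1 CPM. For Fbp2 it was 0.20 and 4.06 CPM, and for Pfkl 41.3 and 135 CPM, so that these did not keep a fixed proportion. The part of muscle in any of these values was not tested. Cold HIF2α AKO 1 also had the highest sum of beige markers (8582 CPM).

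**Figure D4:**
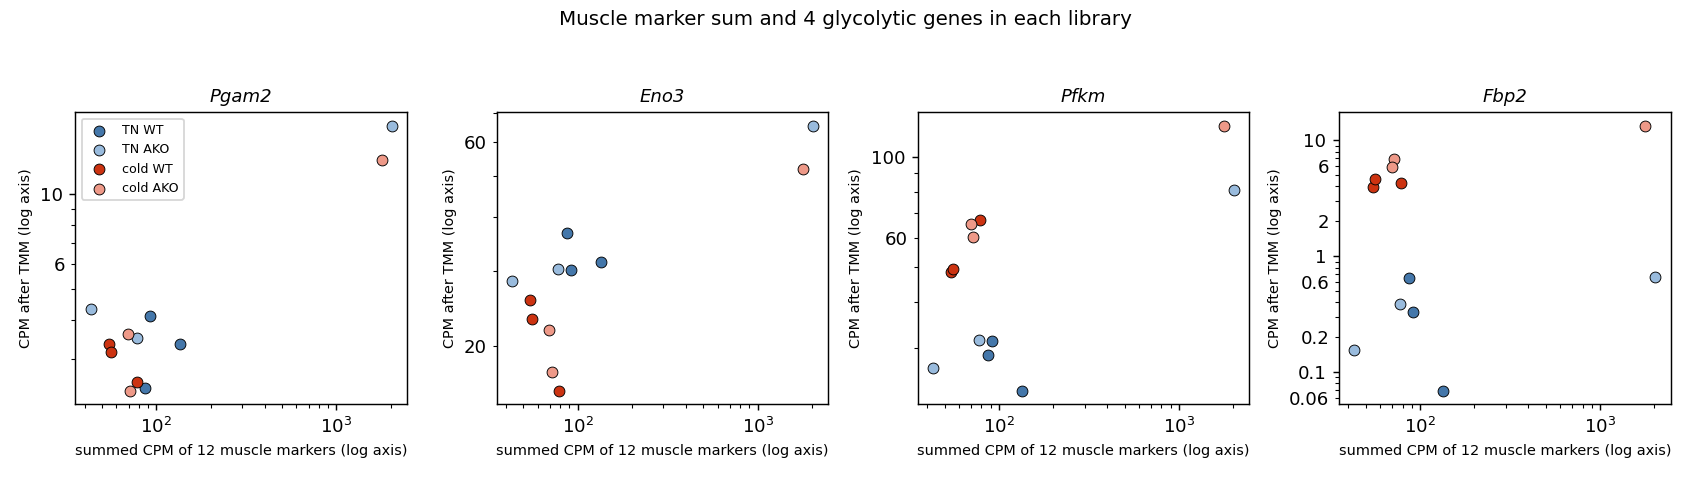
CPM of Pgam2, Eno3, Pfkm and Fbp2 against the summed CPM of 12 skeletal muscle markers in each of the 12 libraries, both on log axes, coloured by group. The libraries TN HIF2α AKO 2 and cold HIF2α AKO 1 lie far right at 2031 and 1785 CPM and highest for Pgam2, Eno3 and Pfkm, while Fbp2 separates cold from TN at muscle sums under 134 CPM.

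Between genotypes, 0 of the 32 genes passed the test at either temperature. At TN 0.00653% of all genes were called, and in cold 0.00653%. At an unadjusted p under 0.05 there was 1 gene at TN (3 with DESeq2) against 2.91% of all genes, and there were 2 in cold (4 with DESeq2) against 2.95% of all genes. At TN the smallest p belonged to Aldoc (-1.06 ± 0.43 on the log2 scale, adjusted p = 0.999), followed by Hk2 at 0.85 ± 0.41, Pgam2 at 1.30 ± 0.66, Pfkm at 0.75 ± 0.40 and Bpgm at 0.24 ± 0.16. Pgam2 and Pfkm are the muscle isoforms above, and without the 2 muscle-marked libraries their differences at TN were 0.24 and 0.07.

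In cold, Pfkl read 322, 350 and 408 CPM in WT and 749, 481 and 554 CPM in HIF2α AKO mice, without overlap. Its log2 fold change was 0.72 ± 0.28 (95% interval 0.10 to 1.34, adjusted p = 1). Pgk1 followed with 0.42 ± 0.17, Gpi1 with 0.35 ± 0.16, Fbp2 with 1.02 ± 0.48 and Bpgm with -0.31 ± 0.16, each at an adjusted p of 1 in edgeR. In 4 genes, Slc2a5, Pfkl, Fbp2 and Pkm, all 3 HIF2α AKO mice lay above all 3 WT mice, against 3.8% of all genes, and in 1, Bpgm, all lay below, against 3.73%. With 3 mice a group, the smallest p of an exact two-sided permutation test is 0.1. At the looser thresholds of the study's methods, which ask for a change of over 0.2 on the log2 scale and a p under 0.15 before adjustment, there were 6 higher (Pfkl, Pgk1, Gpi1, Fbp2, Pgam1 and Pkm), against 4.74% of all genes, and 2 lower (Slc2a3 and Bpgm), against 4.24%.

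Beige or brown adipocyte markers moved with these differences. Their sum in cold did not overlap between genotypes (3350 to 4864 CPM in WT, 5622 to 8582 CPM in HIF2α AKO mice), and all 8 markers were fitted higher in HIF2α AKO mice (median 0.68 on the log2 scale), 4 of them without overlap. By edgeR 0 of the 8 passed the test, also at an unadjusted p under 0.05, and their part in the differences was not tested.

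The cold HIF2α AKO library with muscle transcripts was the highest of its group in all 6 genes called higher at the looser thresholds, for example in Fbp2 (13.4 against 6.96 and 5.85 CPM). Without both muscle-marked libraries, the log2 fold changes in cold were 0.52 ± 0.27 for Pfkl, 0.21 ± 0.14 for Pgk1, 0.17 ± 0.15 for Gpi1 and 0.57 ± 0.47 for Fbp2. All of these kept their sign and were smaller than with all libraries, and their edgeR adjusted p stayed at 1. Pgam2 and Eno3 changed sign, from 1.05 and 0.49 to -0.01 and -0.13. Smaller changes of sign were seen in Aldoa (0.22 to -0.04), Tpi1 (0.02 to -0.15), Taldo1 (0.12 to -0.01) and Pfkfb2 (0.005 to -0.04). Slc2a1 (-0.11 to 0.03) and Eno2 (-0.14 to 0.02) changed sign the other way.

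**Figure D5:**
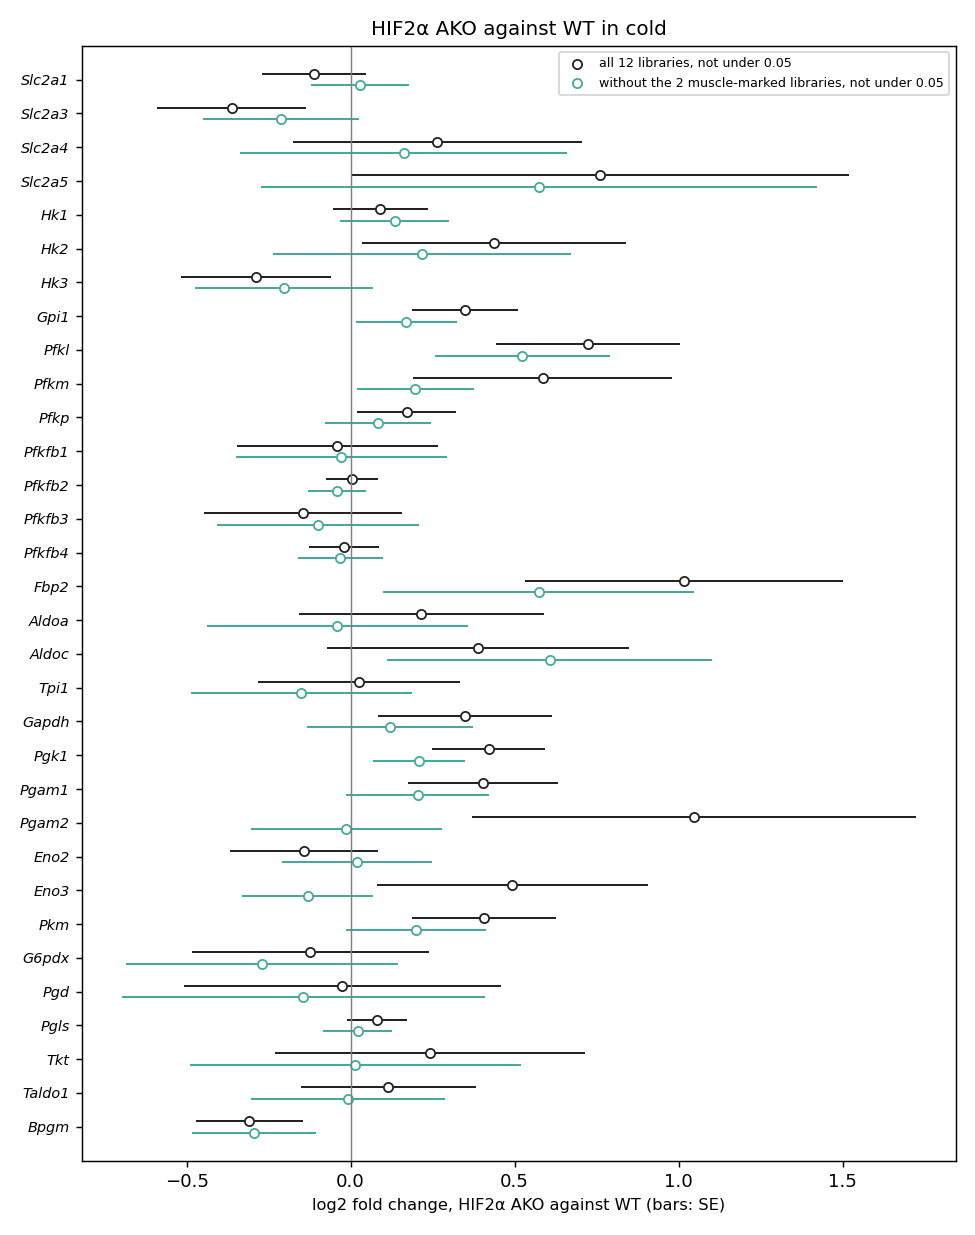
Log2 fold change of HIF2α AKO against WT in cold for the 32 tested genes, with all 12 libraries (black) and without TN HIF2α AKO 2 and cold HIF2α AKO 1 (green), with SE as bars. Circles are open throughout because no adjusted p was under 0.05, and Pgam2 moves from 1.05 to -0.01 and Pfkl from 0.72 to 0.52.

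The cold response was compared between genotypes by the interaction term. In it 0 of the 32 genes and 0% of all genes were called, and at an unadjusted p under 0.05 there were 2 of the 32 (2 with DESeq2) against 2.14% of all genes. These were Bpgm (-0.55 ± 0.23) and Aldoc (1.45 ± 0.63), both at an adjusted p of 1. For Pfkl the difference in response was 0.56 with a 95% interval from -0.31 to 1.43, and for Pgk1 it was 0.33 with -0.21 to 0.86. The calls of Pfkfb4 and Bpgm in WT mice alone were thus not shown to differ between genotypes.

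Other genes of the same pathways were compared in the same fit. Among the other glycolytic and hexose enzymes, Galm, which interconverts the anomers of hexoses, rose in HIF2α AKO mice. Pgp, which removes a side product of glycolysis, rose in both genotypes, by 1.20 ± 0.13 and 1.28 ± 0.13 on the log2 scale. Of 6 tested other sugar transporters, Slc2a8 rose in both genotypes (0.58 and 0.68) and Slc2a13, a myo-inositol transporter, fell in WT mice (-1.23). Of 6 tested other pentose phosphate enzymes, Prps2, a ribose phosphate pyrophosphokinase, fell in both (-0.53 and -0.56), and Shpk, a sedoheptulose kinase, rose in WT mice (0.72).

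Of 6 regulators of glucose uptake and sensing, 0 were called in WT mice, where 15.6% of all genes were called higher and 5.68% lower. At an unadjusted p under 0.05 there was 1 of the 6, by edgeR and by DESeq2, against 38.9% of all genes in edgeR. In HIF2α AKO mice 1 of the 6, Tbc1d4, which holds GLUT4 inside the cell, rose (0.43, adjusted p = 0.0496), and it showed -0.10 in WT mice (adjusted p = 0.633). Of 15 hypoxia-inducible genes outside the pathway, 3 rose and 1 fell in WT mice, and 4 rose and 1 fell in HIF2α AKO mice, with medians of 0.06 and -0.02 on the log2 scale. Thus 20% and 26.7% were called higher, against 15.6% of all genes in both genotypes, whose medians were -0.03 and -0.05. Those called in both were Vegfa (0.85 and 0.87), Egln1 (0.83 and 1.20) and Egln3 (1.32 and 0.80), which rose, and Kdm3a (-0.34 and -0.45), which fell. Ldha, which turns pyruvate into lactate, was called in HIF2α AKO mice (1.01 ± 0.33, adjusted p = 0.0438) and showed 0.88 ± 0.33 in WT mice (adjusted p = 0.0766), with cold above TN without overlap in both.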

How the data were processed

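RNA-seq read counts of mouse iWAT from 12 mice were used as the authors deposited them: whole, unnormalized counts per gene, which the authors made, per the labels, with Trim Galore 0.4.4, STAR 2.6.1d and HTSeq 0.13.5 on GRCm38. The annotation and strand setting are not given in the sources used here. Rows that name no gene took 21.9 to 27.0% of the listed reads and were left out. A limit of 3 counts for a count of 0 covers counting error only.

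Groups were taken from the labels. Counts were fitted in edgeR 4.0.16 (R 4.3.3, limma 3.58.1) with TMM, filterByExpr (minimum count 10, minimum total 15) and 1 factor of 4 groups, and contrasts were tested by quasi-likelihood with an adjusted p limit of 0.05. DESeq2 1.42.0 was an alternative. Log2 ratios of isoforms used a prior count of 2. Lengths and shared 50-base words came from GENCODE vM21, and promoters from RefSeq. The edgeR fit and the permutation test were tested on simulated data. The members and lists were chosen with earlier results of these data known. Genes are named where called in a contrast (the 12 largest folds where more), as the 5 smallest p where under 3 were called, as isoforms of a tested ratio, or where a muscle-marked library exceeded 2 times the others. Replicate numbers did not pair the samples. A gene of a comparison list is not reported here.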

Additional observations from a re-analysis of the deposited data

How the results depend on the processing

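The median log2 fold change of the pathway in cold stayed above 0 under every alternative tried, while the number of genes called varied. The count of genes called lower in WT mice, 1 as reported, was 2 with DESeq2 on the groups compared and without both muscle-marked libraries, and it was 0 with edgeR on the groups compared, without both TN libraries with the lowest adipocyte markers, and with the adipocyte marker sum as a covariate. In HIF2α AKO mice the count lower was 1 with DESeq2 on the groups compared, and the count higher was 11 without both muscle-marked libraries. In HIF2α AKO mice Slc2a4, Hk2, Pfkp, Pfkfb1, Aldoa, G6pdx and Taldo1 then lost the call and Pfkm gained it. In WT mice Slc2a4 lost the call higher and Pfkm gained it. The covariate and the leaving out of TN WT 2 and TN HIF2α AKO 1 together were chosen after seeing the data. With the marker sum as a covariate, 2 genes in WT and 7 in HIF2α AKO mice were called higher, the medians were 0.19 and 0.13, and the WT values of Slc2a4 (-0.32), Pfkfb1 (-0.26), Taldo1 (-0.16) and G6pdx (-0.0023), all called as reported, turned negative, as did those of Tkt (-0.71), Pgd (-0.64), Slc2a5 (-2.56) and Pfkm (-0.13), which were not. The marker sum did not overlap between temperatures (4468 to 11888 CPM at TN, 14536 to 28149 CPM in cold). This fit can therefore hardly tell the marker sum from temperature. The cause of the changes of sign was not tested. With Adipoq as the covariate, also chosen after seeing the data, the counts were 19 and 19.

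Leaving out each replicate in turn gave 10 to 19 genes called higher and 0 to 1 lower in WT mice, and 10 to 18 higher in HIF2α AKO mice with medians of 0.75 to 1.31. Pfkfb1 to Pfkfb3 ranged from -0.48 to -0.28 and Slc2a3 to Slc2a1 from -0.30 to -0.20, both losing the call in several of these fits and without both muscle-marked libraries (-0.41 and -0.24). The other 8 isoform ratios kept their call in every alternative run. In cold, the looser thresholds gave 6 genes higher and 2 lower between genotypes in place of 0. With the length of the longest protein-coding transcript, also added after seeing the data, the share of Pfkl in cold HIF2α AKO mice was 69.4%. With a replicate block, 17 genes were called higher and 0 lower in WT mice and 16 higher in HIF2α AKO mice. Deviations of same-numbered samples correlated at over 0.1 in 5 of 18 pairs (-0.43 to 0.39), so that they share only a number. Fbp2 and Aldoc rest on few counts.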
